A study of Macaca fascicularis with 5 samples.

Results

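The dLGN libraries of cynomolgus monkeys titled as right (Control-307 and Control-331) were compared with those titled as left (Deprivated-316, Deprivated-326 and Control-317) across all genes. Members were chosen by the side written in each title, which put 2 of the 5 libraries on the right and 3 on the left, with 1 animal behind each library. Transcript counts were summed over each of 20576 gene symbols, and 14317 genes passed a filter on low counts and were tested. The right-titled animals were both untreated controls. Of the left-titled animals, those of Deprivated-316 and Deprivated-326 were labelled as deprived, with the left eye sutured from 1 to 3 months of age, and that of Control-317 as a control. All 5 animals are labelled as 3 months old, whereas the study's methods place the suture at 1 month and collection 3 months later. From the deprived animals only the left dLGN was sequenced, because the RNA of the right one was of low quality. For the control libraries, however, GEO's description states that left and right dLGN were mixed, which goes against the side in their titles. Side by title cannot be told apart from the animal and its dissection, and only partly from condition. The results below are therefore differences between these libraries, not between the left and right brain, and p-values measure the spread between these animals.

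A doubt about condition touches 2 of the left-titled libraries. The group means printed with the study matched these counts for 310 of 310 transcripts when Control-317 was counted as deprived and Deprivated-316 as a control, and for 20 of 310 under the deposited labels. Both libraries carry a left title, so the comparison of the sides is the same either way. For comparisons that use the condition, counts of calls, some list medians and some genes are also given with these labels exchanged.

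The dLGN is the thalamic relay between the retina and the primary visual cortex. Its relay neurons release glutamate, carry the vesicular transporter SLC17A6 and the transcription factor TCF7L2, and lie close to other grey matter. Spiny projection neurons of the striatum are recognised by DRD1, DRD2, PPP1R1B and PENK, pyramidal neurons of the cortex by SLC17A7, NEUROD6 and TBR1, and the choroid plexus by TTR.

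Library totals were 9424975 and 10084102 estimated counts in the right-titled libraries, and 7607859, 7391844 and 12966019 in Deprivated-316, Deprivated-326 and Control-317. In each library 13613 to 14022 genes reached 10 counts. Values are given as CPM, counts scaled to a common normalised library total, in the order Control-307, Control-331 on the right and Deprivated-316, Deprivated-326, Control-317 on the left. Over the tested genes (genes are no independent replicates), log2 CPM correlated at r = 0.952 between the right-titled libraries, at 0.873 to 0.945 among the left-titled ones, and at 0.849 to 0.914 between the sides. On the first principal component (44.1% of variance) the libraries were ordered Control-307, Control-331, Deprivated-316, Deprivated-326 and Control-317. The second (32.1%) set Deprivated-316 and Deprivated-326 apart from the 3 libraries labelled as controls, a label in doubt for Control-317 as stated above. The left-titled libraries were thus less alike than the right-titled ones.

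**Figure D1:**
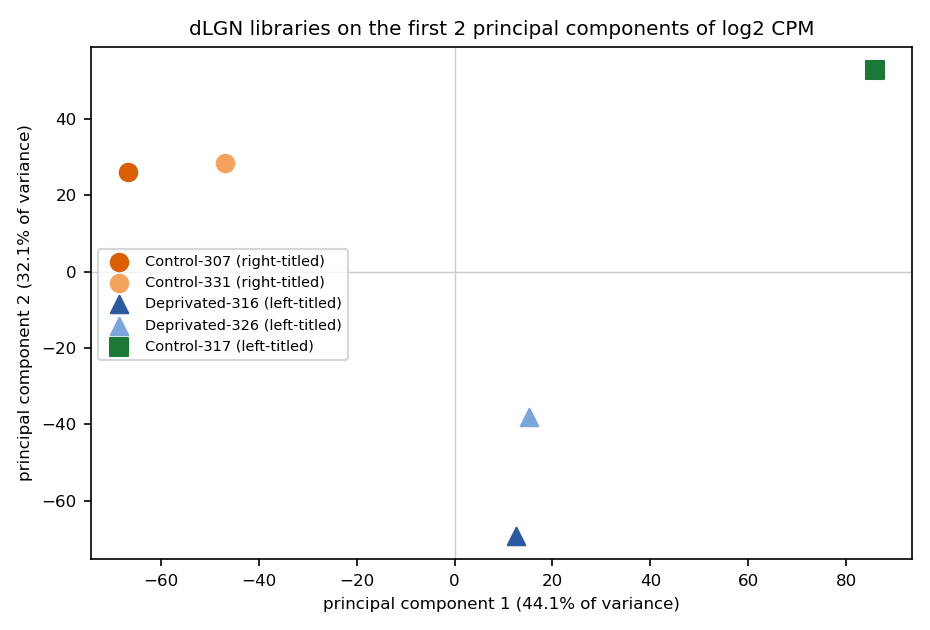
Each library is placed by its scores on the first 2 principal components of log2 CPM over 14317 genes, with the share of variance on each axis; circles are right-titled, triangles left-titled deprived and the square left-titled control. The right-titled libraries lie at -66.6 and -47.0 on the first component, and the left-titled ones at 12.6, 15.1 and 85.8.

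Most of the genes that passed the test between the sides were lower in right-titled libraries. EdgeR's quasi-likelihood test with Benjamini-Hochberg adjustment called 56 genes of the whole table at an adjusted p under 0.05. Of these, 4 were higher in right-titled libraries (0.0279% of genes tested) and 52 lower (0.363%). All 56 adjusted p-values lay between 0.0443 and 0.0469, close to the threshold. Of the 14317 genes tested 3027 had an unadjusted p under 0.05 (1332 higher, 1695 lower). By sign alone, 7124 had a positive and 7193 a negative fold change. The counts given for lists below stand beside these counts over all genes. In all 56 genes the sides did not overlap. Over all genes tested, every right-titled library lay above every left-titled one in 23.2%, and below in 21.7%. The 52 lower genes had log2 fold changes of 1.37 to 4.61 in size, with a median of -2.19. Their highest library was Deprivated-316 in 27, Control-317 in 23 and Deprivated-326 in 2, and their lowest was Control-307 in 44 and Control-331 in 8. Their CPM varied little among the 3 left-titled libraries, with a median coefficient of variation of 12.8%, against 24.5% over all genes tested. A small spread is part of what the test selects for.

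The number of calls changed when single libraries were left out. Without Control-307, Control-331, Deprivated-316 or Deprivated-326, edgeR's test called 0 genes, with 1236, 1498, 2574 and 2436 at an unadjusted p under 0.05. In the first 2 of these fits the right-titled side is 1 library, which is assumed to vary like the left-titled ones. Without Control-317 it called 1417, all 56 among them. The 56 genes kept their direction in each of these fits, and their edgeR adjusted p-values in the 4 fits with no calls were 0.137 to 0.485. With the same 5 libraries, the count was 1608 in DESeq2 and 975 in edgeR's exact test, both with all 56 genes among the calls. Limma on log2(FPKM + 1), where FPKM scales fragments to transcript length and library size, called 132, with 34 higher and 98 lower.

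**Figure D2:**
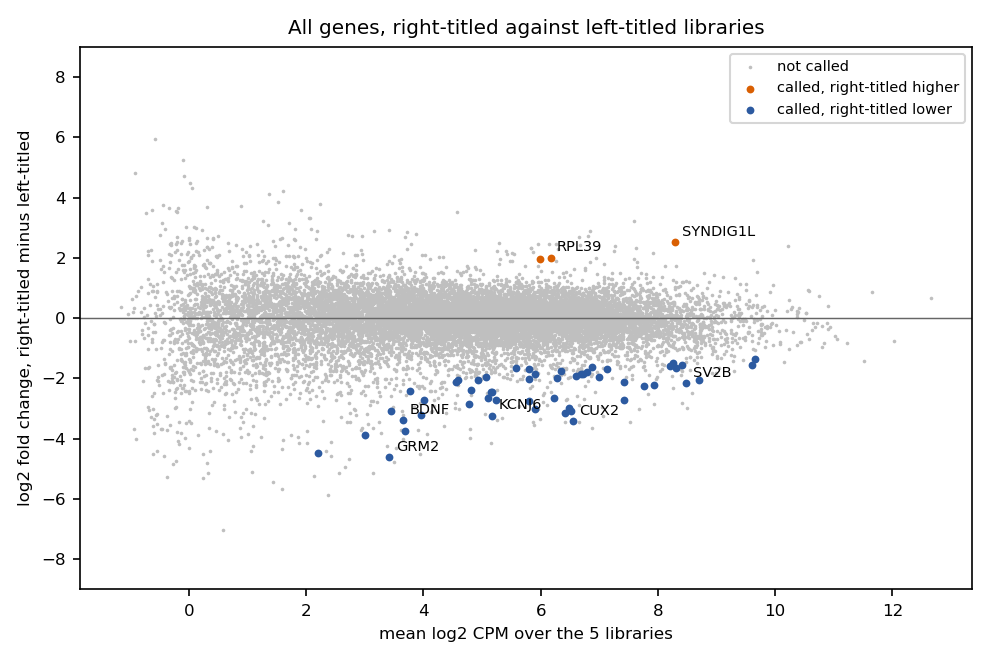
Each point is a gene tested, by its mean log2 CPM over the 5 libraries (horizontal) and its log2 fold change, right-titled minus left-titled (vertical); genes at 0 throughout a side are not drawn. Called genes are coloured, and most lie below 0, with GRM2 at -4.61 and SYNDIG1L at 2.52.

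Among potassium channels, 2 subunits of the channels that G proteins open (GIRK channels) were called as lower. KCNJ6, which encodes GIRK2, had 8.59 and 9.95 CPM in right-titled libraries, against 88.2, 80.7 and 94.4 CPM in left-titled ones. Its log2 fold change was -3.24 (standard error 0.21, edgeR adjusted p = 0.0443). The partner subunit KCNJ3 (GIRK1) had 19.7 and 32.4 CPM against 176, 222 and 223 CPM, a log2 fold change of -2.99 (standard error 0.30). In both genes the 3 left-titled libraries lay close together whatever their condition. Of 59 tested potassium channel genes, 43 had a negative and 16 a positive fold change (median log2 fold change -0.66, against -0.0034 over all genes tested). Only these 2 were called, while 0.363% of all genes tested were called as lower. The large-conductance channel KCNMA1, with 231 and 270.3 CPM against 639.5, 576 and 622 CPM, missed the threshold (edgeR adjusted p = 0.0562). On the higher side KCNAB1, an accessory subunit of voltage-gated channels, had 421 and 374 CPM against 162, 148 and 109 CPM (adjusted p = 0.0594).

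Of 23 tested glutamate receptor genes 3 were called, all lower, while 0.363% of all genes tested were called as lower. GRM2, a presynaptic metabotropic receptor that limits glutamate release, had 1.55 and 1.53 CPM in right-titled libraries and 55.4, 36.2 and 22.5 CPM in left-titled ones, with the deprived libraries above Control-317. Its log2 fold change of -4.61 (standard error 0.51) was the lowest of the 56 called genes. GRIN3A, a subunit that lowers the calcium flow of NMDA receptors, had 7.97 and 8.61 CPM against 72.0, 51.9 and 57.5 CPM (log2 -2.86, standard error 0.24). The kainate receptor subunit GRIK1 had 25.4 and 29.4 CPM against 108, 97.9 and 92.8 CPM (log2 -1.86, standard error 0.19). Each of the 3 had an edgeR adjusted p of 0.0443. Of 23 tested subunits 18 were on the lower side, with a median of -0.66. GRIN1, the obligatory NMDA receptor subunit, was among those not called (297 and 345 CPM against 829, 659.5 and 561 CPM, edgeR adjusted p = 0.101).

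Among 17 GABA receptor genes 13 were on the lower side (median -0.68). The 1 called, where 0.363% of all genes tested were called as lower, was GABRA5, a subunit of extrasynaptic GABA-A receptors. It had 64.9 and 73.6 CPM in right-titled libraries and 222, 205 and 241 CPM in left-titled ones (log2 -1.68, standard error 0.17, edgeR adjusted p = 0.0443). GABBR2, a subunit of the metabotropic GABA-B receptor, had 40.0 and 81.8 CPM against 409.9, 431 and 625 CPM, with an edgeR adjusted p of 0.0579. Of 26 sodium, calcium and HCN channel genes 19 were on the lower side (median -0.44) and none passed edgeR's test, while 3 higher and 8 lower genes had an unadjusted p under 0.05. This median turned to 0.14 against Control-317 alone. CACNA1G, a T-type calcium channel of burst firing in relay neurons, had 17.8 and 36.3 CPM against 235, 276 and 515 CPM (edgeR adjusted p = 0.062). CACNA1H, another T-type channel, lay the other way with 97.7 and 106 CPM against 20.7, 37.4 and 23.9 CPM (edgeR adjusted p = 0.0643). So did the sodium channel subunit SCN4B (log2 1.37) and CACNG4 (log2 1.02), a calcium channel subunit by gene name.

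Among 39 synaptic vesicle and release genes 4 were called, all lower, while 0.363% of all genes tested were called as lower. By sign 32 were on the lower side (median -1.10). In 66.7% of the list every left-titled library lay above both right-titled ones, against 21.7% of all genes tested. SV2B, a vesicle membrane glycoprotein, had 130.1 and 163 CPM in right-titled libraries, against 715, 599 and 647 CPM in left-titled ones (log2 -2.16, standard error 0.20). PCLO, a scaffold of the active zone, had 161 and 159 CPM against 576, 472 and 459 CPM. Its log2 fold change was -1.65 (standard error 0.18), and both genes had an edgeR adjusted p of 0.0443. The calcium sensor SYT1 (611 and 629 CPM against 1839.9, 1765 and 1502 CPM) missed the threshold at 0.0515.

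Other called genes of the synapse and membrane were outside the lists. SHANK1, a scaffold of the postsynaptic density, had 54.1 and 57.2 CPM in right-titled libraries and 454, 342 and 297 CPM in left-titled ones (log2 -2.71). The adhesion proteins TENM2 (22.7 and 28.5 CPM against 249, 235 and 163 CPM), CNTNAP5 (17.2 and 17.6 CPM against 124, 105 and 191 CPM) and CLSTN2 (18.3 and 17.4 CPM against 96.8, 106 and 158 CPM) had log2 fold changes of -3.07, -3.01 and -2.75. TENM2 was highest in the deprived libraries, and CNTNAP5 and CLSTN2 in Control-317. The endocytic genes DNM1 and AMPH had log2 fold changes of -2.05 and -1.97. Each had an edgeR adjusted p of 0.0443.

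Further called genes were named after their values were seen. The cadherins CDH18 and PCDH19 had 9.83 and 16.2 CPM in right-titled libraries against 66.9, 68.5 and 78.7 CPM in left-titled ones, and 11.2 and 14.4 CPM against 87.4, 61.0 and 62.3 CPM. The contactin CNTN5, an immunoglobulin-type adhesion molecule, had 8.90 and 11.9 CPM against 43.4, 59.0 and 60.7 CPM. LINGO1, a component of the Nogo receptor complex that restrains axon growth, had 64.7 and 77.0 CPM against 381, 272 and 277 CPM, and RTN4RL1, a receptor of the Nogo receptor family, had a log2 fold change of -2.65. In these 5 genes every left-titled library, deprived or not, lay above both right-titled ones. SLC6A17, a vesicular transporter of neutral amino acids, had 76.9 and 93.8 CPM against 420.0, 369 and 425 CPM (log2 -2.24, standard error 0.19), and UNC80, a subunit of the sodium leak channel complex, had 147 and 158 CPM against 443, 423 and 515 CPM (log2 -1.60, standard error 0.18). PTK2B and PAK1, kinases that link receptors to the cytoskeleton, had log2 fold changes of -1.85 and -1.58. All had edgeR adjusted p-values of 0.0443 to 0.0469.

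Among secreted factors and receptors, BDNF, a neurotrophin whose transcription follows neuronal activity, had 3.00 and 3.06 CPM in right-titled libraries, against 41.7, 32.2 and 22.0 CPM in left-titled ones. Its log2 fold change was -3.39 (standard error 0.37, edgeR adjusted p = 0.0443). CRHR1, the receptor of corticotropin-releasing hormone, had 3.31 and 2.58 CPM against 24.0, 23.6 and 27.2 CPM (log2 -3.08). BDNF was the 1 gene called of 29 neuronal activity-induced genes, of which 23 were on the lower side (median -0.80). Over all genes tested 0.363% were called as lower. HOMER1, a postsynaptic scaffold with an activity-induced form, lay the other way, with 601 and 573 CPM against 356, 275 and 146 CPM (edgeR adjusted p = 0.168). The median of the activity list was -0.89 against the left-titled deprived libraries alone, but 0.49 against Control-317 alone.

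Among the other called genes with low fold changes, HS3ST2, a heparan sulphate sulphotransferase of neurons, had 1.45 and 1.53 CPM in right-titled libraries and 27.4, 21.6 and 18.3 CPM in left-titled ones (log2 -3.90, standard error 0.32). CHST8, which adds sulphate to N-acetylgalactosamine, had 0.517 and 0.765 CPM against 14.8, 10.1 and 18.9 CPM (log2 -4.48, standard error 0.48). CDKN1A, the cell cycle inhibitor p21, had 2.48 and 2.77 CPM against 39.0, 28.5 and 38.6 CPM (log2 -3.74, standard error 0.28), and SIDT1, a membrane protein, had 3.52 and 4.69 CPM against 43.4, 25.7 and 45.0 CPM. CUX2, a transcription factor of upper cortical layers that other brain regions also express, had 19.0 and 26.2 CPM against 281, 209 and 241 CPM (log2 -3.43, standard error 0.26). In CUX2 and HS3ST2, Control-317 lay with the deprived libraries, which sets them apart from most cortical markers described below.

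**Figure D3:**
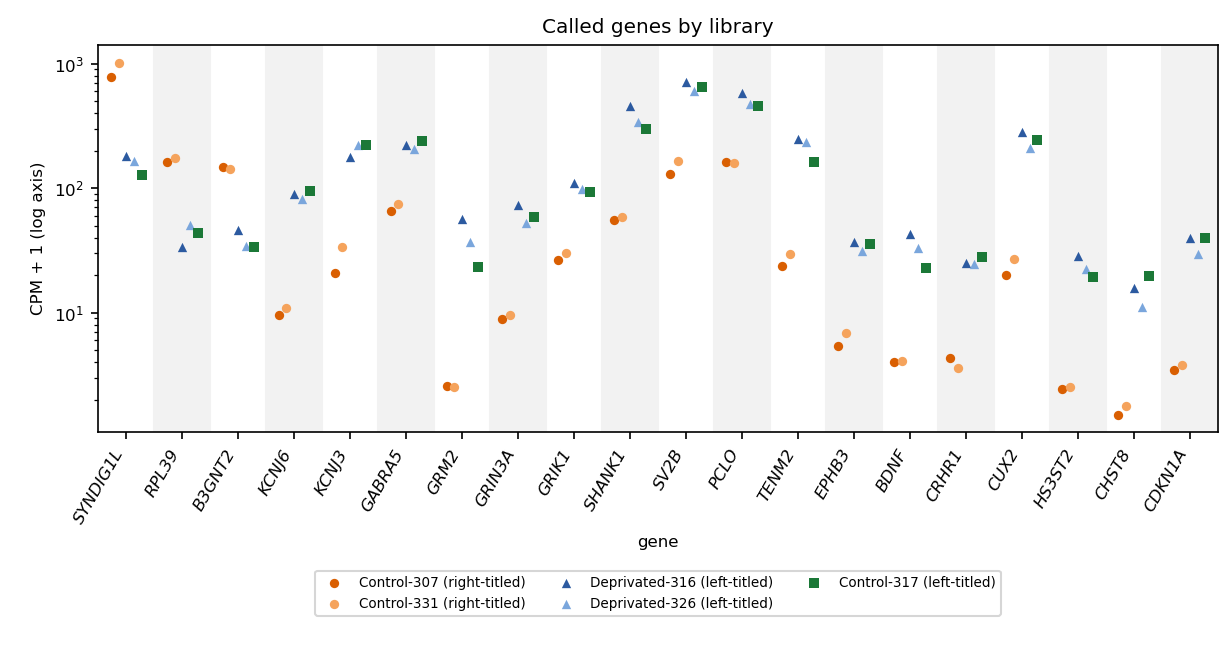
CPM + 1 on a log axis for 20 called genes, with 1 point per library: circles right-titled, triangles left-titled deprived, squares left-titled control. In SYNDIG1L, RPL39 and B3GNT2 both circles lie above the other points, and in the other 17 genes both lie below them.

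On the higher side 4 genes were called. SYNDIG1L, a transmembrane protein enriched in striatal neurons, had 788 and 1018 CPM in right-titled libraries, against 181.7, 164.6 and 127.5 CPM in left-titled ones (log2 2.52, standard error 0.23, edgeR adjusted p = 0.0443). B3GNT2, a glycosyltransferase that builds poly-N-acetyllactosamine chains, had 146 and 142 CPM against 45.2, 33.3 and 32.8 CPM (log2 1.96, standard error 0.21). RPL39, a protein of the large ribosomal subunit, had 161 and 173 CPM against 32.9, 49.4 and 42.5 CPM (log2 2.01, standard error 0.22). LOC102132017, annotated as similar to the Rieske subunit of respiratory complex III, had 284 and 303 counts in right-titled libraries and was listed at 0 in every left-titled one. Against a floor of 3 counts over the left-titled libraries it was at least 265-fold higher, a bound that covers counting error only. RPL39 and this locus may share reads with near-identical copies, so that their values are uncertain.

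The 12 genes next in order by p-value on the higher side did not pass (edgeR adjusted p of 0.0548 to 0.0602). They included CA12, a carbonic anhydrase of the cell surface (184 and 189 CPM against 72.8, 49.8 and 59.9 CPM), and CRABP1, which binds retinoic acid in the cytosol (16.4 and 16.7 CPM against 4.56, 3.82 and 3.28 CPM). FKBP5, a co-chaperone of the glucocorticoid receptor, had 47.8 and 41.2 CPM against 12.7, 7.64 and 12.6 CPM. MNDA, a nuclear antigen of myeloid cells, had 13.04 and 12.91 CPM against 3.22, 2.18 and 2.48 CPM. The transcription factor PBX3 had 54.2 and 46.5 CPM against 15.7, 20.2 and 19.6 CPM. The others were RPS26, ARHGAP5, PNO1, EPB41, PRELID3B, KCNAB1 and EFL1, with log2 fold changes of 1.16 to 1.95.

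Markers of striatal spiny projection neurons were high in the right-titled libraries, intermediate in the deprived ones and lowest in Control-317. PPP1R1B (DARPP-32), an inhibitor of protein phosphatase that dopamine signalling controls, had 603 and 563 CPM in right-titled libraries, against 186, 121 and 39.1 CPM in left-titled ones. The dopamine receptor DRD1 had 437 and 375 CPM against 124, 98.1 and 40.9 CPM, and DRD2 had 193 and 183 CPM against 66.8, 40.7 and 6.08 CPM. PENK, the precursor of enkephalins, had 444 and 489.9 CPM against 100.4, 76.8 and 11.7 CPM. ADORA2A, the adenosine receptor of striatopallidal neurons, had 452 and 375 CPM against 99.2, 73.8 and 13.9 CPM. TAC1 and RGS9 were likewise higher in both right-titled libraries than in the deprived ones, and lowest in Control-317.

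Of 38 tested striatal markers 35 were on the higher side, with a median log2 fold change of 1.43. In 34 of them every right-titled library lay above every left-titled one (89.5%, against 23.2% of all genes tested), and in 27 (71.1%, against 12.4%) the order was right-titled, deprived, Control-317. The summed level of the list was 14995 and 14053 CPM in right-titled libraries, and 5161, 4179 and 1680 CPM in left-titled ones. Only SYNDIG1L passed the test over all genes, where 0.0279% were called as higher. On the higher side 24 had an unadjusted p under 0.05, against 1332 of the 14317 genes tested. PPP1R1B, DRD1, DRD2 and PENK had log2 fold changes of 2.34, 2.21, 2.32 and 2.89, with standard errors of 0.60, 0.45, 0.85 and 0.80 and edgeR adjusted p-values of 0.13, 0.0985, 0.207 and 0.145. Of the 38, 19 also stand in other lists. In bulk tissue, fewer cells of a type and less RNA per cell cannot be told apart. What part the tissue taken had in this or in the other differences between the sides was not tested.

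Thalamic relay markers ran the opposite way. SLC17A6 (VGLUT2) had 16.5 and 68.6 CPM in right-titled libraries, against 134, 410.4 and 679.6 CPM in left-titled ones. TCF7L2 had 22.0 and 60.4 CPM against 68.0, 206 and 476 CPM, and NTNG1, a netrin anchored in the membrane of thalamic axons, had 9.21 and 41.5 CPM against 103, 224 and 507 CPM. In each, the order of the libraries was Control-307, Control-331, Deprivated-316, Deprivated-326 and Control-317. The log2 fold changes were -3.26, -2.60 and -3.45 (standard errors 0.94, 0.92 and 0.97; edgeR adjusted p = 0.152, 0.199 and 0.149). GBX2, a transcription factor of the early thalamus, stayed low in all libraries (1.55 and 1.53 CPM against 2.15, 6.55 and 6.64 CPM), and in LEF1 the sides overlapped. PRKCD, a kinase of mature relay neurons, lay with the striatal markers (51.5 and 50.7 CPM against 37.3, 15.3 and 10.1 CPM).

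Of 19 tested relay markers 15 were on the lower side (median -1.38) and in 9 the sides did not overlap in that direction (47.4%, against 21.7% of all genes tested). None passed edgeR's test over all genes, while 1 higher and 9 lower genes had an unadjusted p under 0.05. Their summed level was 805 and 930 CPM in right-titled libraries, and 1416, 2399 and 4272 CPM in left-titled ones. Per length of transcript, the right-titled libraries held more of the striatal marker PPP1R1B than of the relay marker SLC17A6, the 1 pair compared. In FPKM, PPP1R1B was at 147 and 143 in right-titled libraries and SLC17A6 at 2.29 and 9.88. In Control-317 the order was reversed, with 9.66 FPKM of PPP1R1B and 95.3 FPKM of SLC17A6. The deprived libraries held 43.6 and 28.9 FPKM of PPP1R1B and 17.9 and 55.9 FPKM of SLC17A6. All libraries carry the label dLGN, and the relay markers SLC17A6, TCF7L2 and NTNG1 were low but not at 0 in the right-titled ones. PRKCD, given above, and SYT2, another gene of the relay list, were higher there. SYT2 had 270 and 171 CPM in right-titled libraries against 107, 60.7 and 49.5 CPM in left-titled ones.

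Transcription factors of the diencephalon and midbrain were divided in direction, with ZIC1 and ZIC2 following the relay markers. ZIC1 had 9.31 and 13.97 CPM in right-titled libraries, against 18.1, 51.6 and 136 CPM in left-titled ones, and ZIC2 had 5.07 and 4.69 CPM against 9.92, 17.6 and 31.9 CPM. Neither passed edgeR's test (adjusted p = 0.189 and 0.14). The median of the 15 tested factors was -0.94 but turned to 0.18 without Control-317.

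Defining markers of cortical and hippocampal excitatory neurons were high in the 2 libraries labelled as deprived. TBR1, a transcription factor of deep cortical layers, had 2.48 and 1.34 CPM in right-titled libraries, against 98.4 and 49.96 CPM in Deprivated-316 and Deprivated-326 and 0.4002 CPM in Control-317. NEUROD6, a transcription factor of cortical excitatory neurons, had 1.86 and 0.383 CPM against 37.8, 22.7 and 0.4002 CPM. The cortical glutamate transporter SLC17A7 (VGLUT1) had 0 and 2.39 CPM in right-titled libraries and 44.0, 13.6 and 0 CPM in left-titled ones. Control-317 thus lay with the right-titled libraries in these genes, the sides overlapped in all 3, and none passed edgeR's test (adjusted p of 0.243 to 0.379).

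The list as a whole had 19 of 21 tested genes on the lower side and a median of -3.28. That median was -3.44 against the deprived libraries alone but 0.46 against Control-317 alone, so its direction turned with the deprived libraries out of the comparison. Summed levels were 645 and 591 CPM in right-titled libraries and 2891, 1955 and 1235 CPM in left-titled ones. The 3 called members were CUX2, HS3ST2 and SV2B, which were also high in Control-317. Over all genes tested 0.363% were called as lower.

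**Figure D4:**
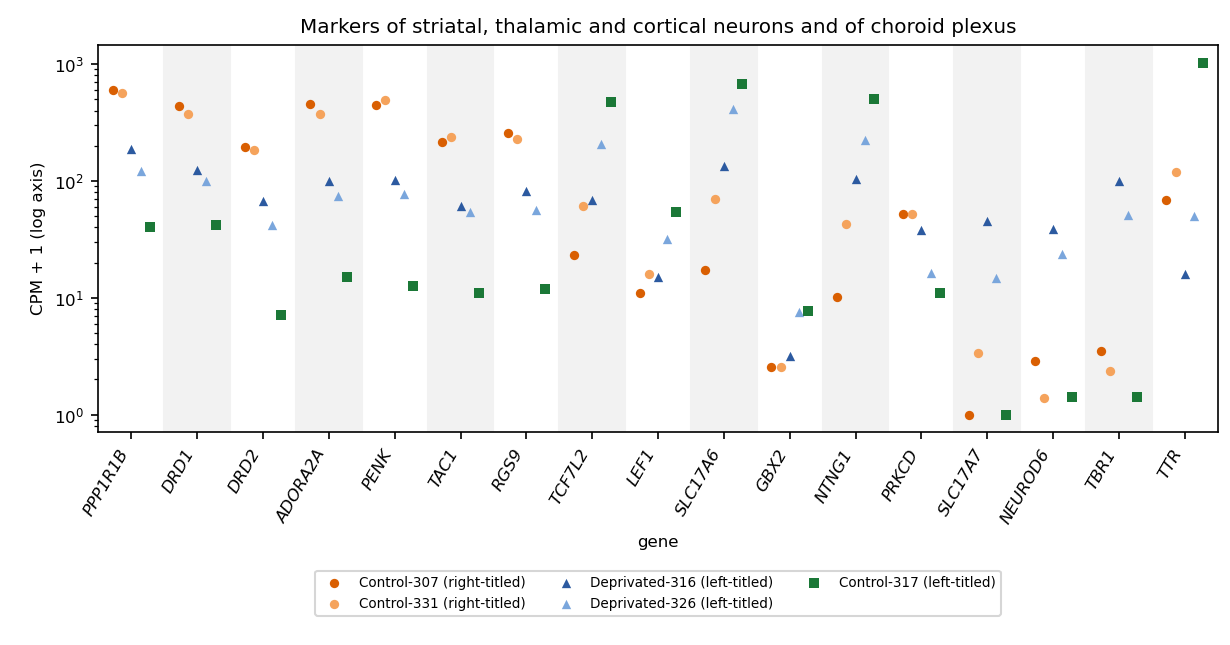
CPM + 1 on a log axis for 17 marker genes, with 1 point per library: circles right-titled, triangles left-titled deprived, squares left-titled control. Striatal markers (PPP1R1B to RGS9) run from circles at the top to the square at the bottom, SLC17A6, TCF7L2 and NTNG1 run the other way, and SLC17A7 to TBR1 are high in the triangles only.

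Choroid plexus and ependymal genes were mostly highest in Control-317, which held the highest value in 10 of 13 tested genes and the lowest in 1. TTR, the thyroxine carrier made by choroid plexus, had 68.0 and 119 CPM in right-titled libraries, and 14.9, 48.9 and 1027 CPM in left-titled ones. DNAH9, a dynein of motile cilia, had 19.97 and 30.2 CPM against 47.3, 77.1 and 252 CPM. The 13 tested genes had a median of -1.29, which turned to 0.31 without Control-317. RSPH1 lay the other way, with 8.28 and 6.79 CPM in right-titled libraries against 2.95, 1.23 and 0 CPM in left-titled ones. The summed level of the list was 138 and 204 CPM in right-titled libraries and 105, 180 and 1499.6 CPM in left-titled ones. Of the sum in Control-317, TTR alone held 1027 CPM. None of the 13 genes passed edgeR's test, and 1 had an unadjusted p under 0.05.

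Genes of interneurons and of other basal forebrain cells were mostly lowest in Control-317. SLC5A7, the choline transporter of cholinergic neurons, had 47.5 and 60.5 CPM in right-titled libraries, against 9.25, 12.7 and 0.880 CPM in left-titled ones. LHX8, a transcription factor of those neurons, had 4.66 and 5.07 CPM against 0.939, 0.136 and 0.0800 CPM. CALB2 (calretinin) lay the other way with 16.7 and 25.9 CPM against 40.8, 53.0 and 40.2 CPM. Of 23 tested genes 13 were on the higher side (median 0.44). GAD2, which makes GABA, had 308 and 381 CPM against 220.2, 199.8 and 120.4 CPM, while GAD1 was listed at 0 in Control-307 and at 12.9 CPM in Control-331, and its direction turned without Control-331. The median of the 8 genes of GABA synthesis and transport was 0.06. No gene of either list passed edgeR's test; 6 and 2 had an unadjusted p under 0.05.

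The neuromodulator systems divided between the marker patterns. Of 30 dopamine signalling genes 17 were on the higher side (median 0.38), and 10 of the 30 are shared with other lists. ADCY5, the adenylate cyclase of striatal neurons, had 530.2 and 511 CPM in right-titled libraries, against 267, 228 and 163 CPM in left-titled ones. PRKCB, a protein kinase C, had 34.4 and 29.0 CPM against 74.6, 83.9 and 116 CPM. Of 12 opioid and tachykinin genes 7 were on the higher side (median 0.23, but -0.03 without Deprivated-326). PNOC, the precursor of nociceptin, had 1.24 and 3.06 CPM against 17.6, 30.2 and 80.4 CPM, and its receptor OPRL1 had 15.7 and 13.7 CPM against 44.4, 39.9 and 68.4 CPM. For TACR1, the substance P receptor, the values were 40.9 and 33.4 CPM against 18.6, 11.6 and 15.6 CPM. None of these genes passed edgeR's test (adjusted p of 0.0798 to 0.0984).

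Receptors of serotonin, acetylcholine and noradrenaline were mostly on the lower side, 20 of 29 tested, with a median of -1.40. The adrenergic receptor ADRA2A had 4.76 and 5.07 CPM in right-titled libraries, against 19.3, 16.7 and 23.4 CPM in left-titled ones (log2 -2.01, standard error 0.27, edgeR adjusted p = 0.0574). ADRA1D, another adrenergic receptor, had 0.207 and 1.24 CPM against 15.3, 16.1 and 47.3 CPM. Nicotinic subunits of the thalamus lay the same way, with CHRNA4 at 4.24 and 11.5 CPM against 27.8, 50.2 and 115 CPM, and CHRNA7 at 10.04 and 14.2 CPM against 31.5, 29.3 and 51.6 CPM. None passed edgeR's test, and 13 had an unadjusted p under 0.05.

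Axon guidance genes were lower in 49 of 59 tested members by sign (median -0.79). In this list 1 was called, while 0.363% of all genes tested were called as lower. EPHB3, an ephrin-B receptor, had 4.35 and 5.83 CPM in right-titled libraries, against 36.1, 30.3 and 34.5 CPM in left-titled ones (log2 -2.72, standard error 0.25, edgeR adjusted p = 0.0443). EPHA4, an ephrin receptor of thalamic and cortical axons, had 156 and 172 CPM against 547, 442 and 683 CPM (edgeR adjusted p = 0.0579). SEMA3F, a secreted semaphorin, was listed at 0 in both right-titled libraries and had 30, 13 and 72 counts in Deprivated-316, Deprivated-326 and Control-317. It was at least 28.3-fold lower against a floor of 3 counts over the right-titled libraries, and the list's median was also -0.79 with SEMA3F at this bound. Of 45 Wnt signalling genes 32 were on the lower side (median -0.34). RSPO2 and RSPO3, secreted activators of the pathway, had 0.103 and 0.861 CPM against 16.6, 10.4 and 3.92 CPM, and 0.828 and 2.49 CPM against 6.57, 22.5 and 26.2 CPM. Neither these nor any other Wnt gene passed edgeR's test, and 8 had an unadjusted p under 0.05. The 17 retinoic acid genes had a median of -0.05, which turned to 0.03 and 0.02 in limma on log2(FPKM + 1) and log2(FPKM + 0.1), to 0.18 without Control-317 and to 0.12 against Control-317 alone, with RXRG, a retinoid receptor of striatal neurons, at 404.5 and 308 CPM against 86.0, 66.2 and 14.01 CPM.

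Genes that set the left-right axis of the embryo were few in the table of tested genes. Of 31 listed genes 27 were in the table, and 13 of these did not pass the filter on low counts. Of the 14 tested, 5 had a positive and 9 a negative fold change, with a median of -0.14. None was called by edgeR, where 0.0279% of all genes tested were called as higher and 0.363% as lower, and 3 had an unadjusted p under 0.05, all lower. ACVR2A, an activin receptor that also binds Nodal, had 37.7 and 38.7 CPM in right-titled libraries, against 95.7, 78.6 and 48.5 CPM in left-titled ones (edgeR adjusted p = 0.183). In MMP21, a metalloproteinase of the axis pathway, the sides overlapped. In every comparison at most 1 gene of this list was called in a direction.

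Of the glial lists, microglial and oligodendrocyte genes had the highest medians. All 19 microglial genes had a positive log2 fold change (median 0.77), and in 13 both right-titled libraries lay above all left-titled ones (68.4%, against 23.2% of all genes tested). C1QC, a complement component, had 32.2 and 34.5 CPM in right-titled libraries and 17.2, 13.8 and 18.1 CPM in left-titled ones. AIF1 (IBA1) had 14.2 and 17.9 CPM against 6.84, 7.37 and 6.16 CPM, and the purinergic receptor P2RY12 had 147 and 123 CPM against 81.9, 79.3 and 60.5 CPM. Their edgeR adjusted p-values were 0.0979, 0.0997 and 0.117. No microglial gene was called, and 8 had an unadjusted p under 0.05.

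Of 20 oligodendrocyte genes 17 were on the higher side (median 0.43), 16 of the 20 having their lowest value in Deprivated-316. MBP, a myelin membrane protein, had 1815 and 1424 CPM in right-titled libraries, against 776, 1032 and 475 CPM in left-titled ones. Summed levels were 16584 and 15873 CPM against 6872, 11706 and 12975 CPM. Astrocyte genes had a median of 0.23, which turned to -0.10 against Control-317 alone, oligodendrocyte precursor genes -0.09, and endothelial and mural genes 0.31. Of 20 tested astrocyte genes 12 were on the higher side and 8 on the lower. At an unadjusted p under 0.05, 4 were higher: MLC1 (log2 0.63), GJB6 (log2 1.18), SLC4A4 (log2 0.49) and GLUL (log2 0.44). The 2 lower ones were CLU, a chaperone, and SLC1A2, a glutamate transporter (792 and 771 CPM against 1289.9, 1228 and 1524 CPM for CLU). No gene of these 4 lists was called by edgeR. An unadjusted p under 0.05 was found in 5 of 20 oligodendrocyte, 6 of 20 astrocyte, 4 of 15 precursor and 3 of 25 endothelial and mural genes. Over all genes tested it was found in 3027 of 14317.

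**Figure D5:**
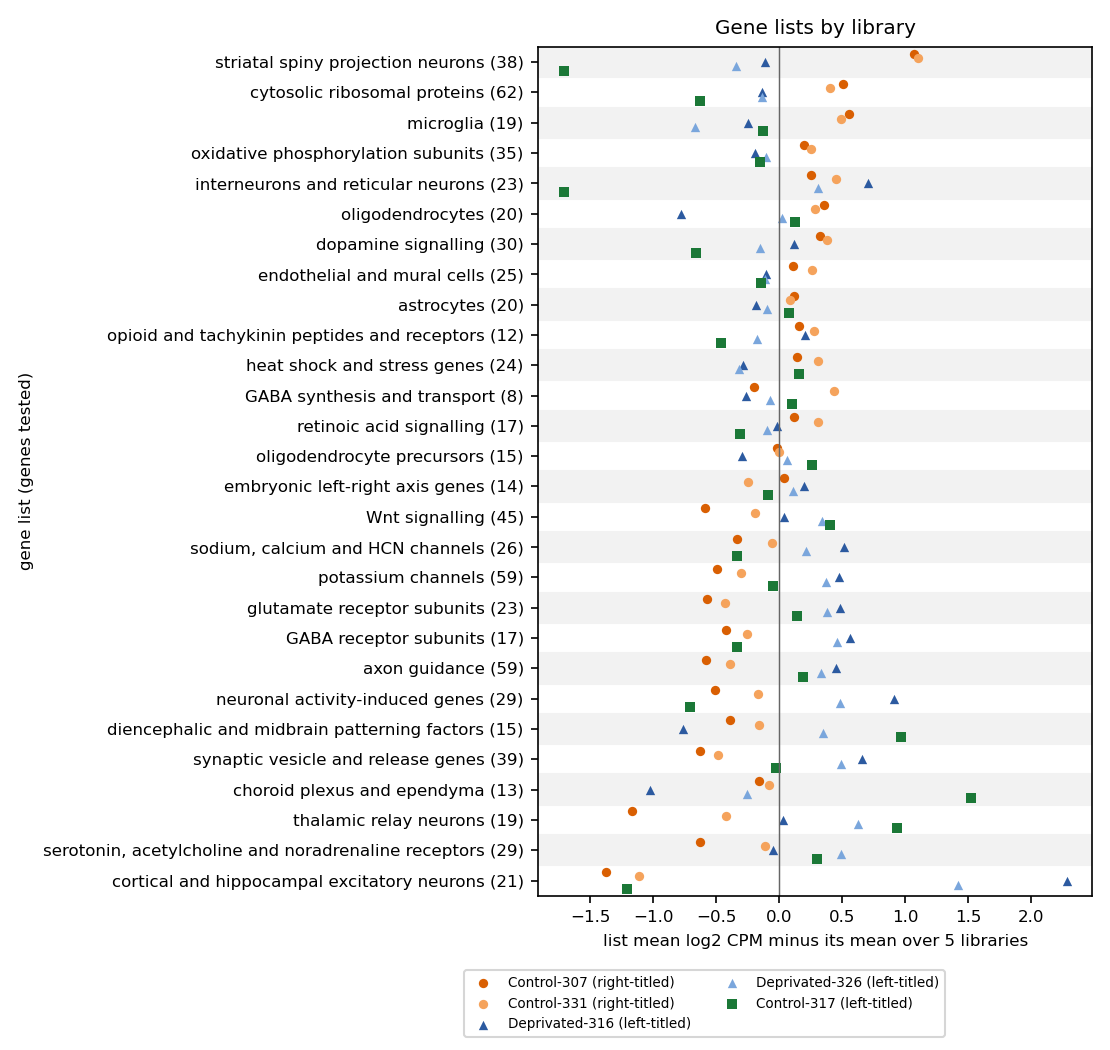
For each gene list, the mean log2 CPM of its tested genes in each library, minus the mean over the 5 libraries (horizontal); lists run from the highest median log2 fold change at the top to the lowest, with the number of genes tested. Striatal, ribosomal and microglial lists have both circles (right-titled) at the right, relay, vesicle and glutamate receptor lists at the left, and cortical markers stand out in the triangles (deprived).

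Ribosomal protein genes mostly had higher values in right-titled libraries. Of 62 cytosolic ribosomal protein genes 60 had a positive log2 fold change (median 0.77), and in 54 the sides did not overlap (87.1%, against 23.2% of all genes tested). Their summed level was 17295 and 18534 CPM in right-titled libraries, and 11164, 11070 and 10075 CPM in left-titled ones. RPL9 had 322 and 324 CPM against 167, 188 and 163 CPM, and RPL14 had 337 and 289 CPM against 169, 164 and 152 CPM, with edgeR adjusted p-values of 0.0783 and 0.0754. RPL39 was the 1 gene called, while 0.0279% of all genes tested were called as higher. Of 35 oxidative phosphorylation genes 25 had a positive fold change (median 0.52), while their summed level was 4559 and 4744 CPM in right-titled libraries and 3670.2, 3966 and 4904 CPM in left-titled ones, highest in Control-317. The complex I subunit NDUFA12 had 37.8 and 32.8 CPM against 18.9, 19.2 and 16.8 CPM. None of these passed edgeR's test, and 15 had an unadjusted p under 0.05. Heat shock and stress genes had a median of 0.20, with PDK4, a kinase that limits pyruvate oxidation, at 47.5 and 48.7 CPM against 17.7, 17.7 and 25.1 CPM, and no call (8 at an unadjusted p under 0.05).

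Fold changes went with transcript length. When 12673 genes with a length were divided into 4 classes of equal size, the median log2 fold change was 0.22 in class 1, with the shortest transcripts, 0.01 and -0.07 in classes 2 and 3, and -0.16 in class 4, with the longest. Right-titled libraries lay above all left-titled ones in 36.0% of class 1 and 17.6% of class 4, and below them in 10.9% and 31.9%. Of the ribosomal genes 61 are in class 1, whose median was 0.21 without them. Of the 52 genes called as lower, 1 was in class 1, 9 in class 2, 22 in class 3 and 20 in class 4. The part of length or of RNA quality in these results was not tested.

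Restricted to control libraries, right-titled against left-titled is the comparison of Control-307 and Control-331 with Control-317 alone, whose spread was taken from the other groups. EdgeR's test called 1493 genes as higher (10.4%) and 1397 as lower (9.76%). Among the striatal markers 30 of 38 were called as higher and 1 as lower (median 2.76), PENK with a log2 fold change of 5.32 and DRD2 with 4.95 (standard errors 0.28 and 0.41, edgeR adjusted p = 0.0084 and 0.0086). Of the 19 relay markers 3 were called as higher and 9 as lower (median -1.88), SLC17A6 with -4.00 (standard error 0.95, edgeR adjusted p = 0.043). Ribosomal genes had 42 of 62 called, all higher, and vesicle genes 5 higher and 17 lower of 39.

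Named by the smallest p-values of this comparison were PDE10A, a phosphodiesterase of striatal neurons (3867 and 3456 CPM against 190.0 CPM), TAC1, the precursor of substance P, and LRRC58 (155 and 141 CPM against 3.84 CPM). STIM2, a calcium sensor of the endoplasmic reticulum, and GPR180 were listed at 0 in Control-317 and were at least 216.5-fold and 219.6-fold higher in right-titled libraries against a floor of 3 counts. They had 66.0 and 56.4 CPM, and 45.7 and 52.7 CPM, in the deprived libraries. Such a 0 in a single library can be a failed estimate, and the bounds cover counting error only. On the lower side were KCNJ6, CNTNAP5 and CLSTN2, given above, with MAP3K9, a kinase of the JNK pathway (94.99 and 95.3 CPM against 479 CPM), and HS6ST3, a heparan sulphate sulphotransferase (129 and 143 CPM against 661 CPM).

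Against the left-titled deprived libraries alone, edgeR's test called 439 genes as higher in right-titled libraries (3.07%) and 835 as lower (5.83%). Here 25 of 38 striatal markers were higher and none lower (median 1.23), and 13 of 21 cortical markers were lower (median -3.44), TBR1 with a log2 value of -5.28 (standard error 0.50, edgeR adjusted p = 0.019). Vesicle genes had 24 of 39 called as lower and 1 as higher (median -1.21), and relay markers 3 of 19 as lower (median -1.29). Ribosomal genes had 29 called as higher (median 0.70). This comparison and the one within controls share both right-titled libraries, so their values are set side by side and not counted as independent.

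Both of these comparisons depend on the condition labels. With the labels of Deprivated-316 and Control-317 exchanged, right-titled controls were compared with Deprivated-316 and with Deprivated-326 and Control-317 together, and edgeR's test called 0 genes in either, with 2075 and 2563 at an unadjusted p under 0.05. The striatal median was then 1.33 and 1.82, the cortical median -3.63 and -2.09, the relay median -0.47 and -1.61 and the ribosomal median 0.69 and 0.83. The vesicle median was -1.33 and -1.03, and that of activity-induced genes -1.19 and -0.49. PENK had log2 fold changes of 2.22 and 3.41, DRD2 1.495 and 3.03, SLC17A6 -1.65 and -3.68 and TBR1 -5.68 and -3.70, with edgeR adjusted p-values of 0.173 to 0.568. Without Control-307 the counts were 0 within controls (3995 at an unadjusted p under 0.05) and 0 against the deprived libraries (2937). Without Control-331 they were 926 and 0 (3181), and without Deprivated-316 and without Deprivated-326 the count against the remaining deprived library was 0 (3213) and 648.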

How the data were processed

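RNA of 5 dLGN samples was enriched for polyadenylated transcripts, copied with random primers and sequenced by the authors. Reads were filtered with fastp 0.18.0 and quantified with StringTie 1.3.4 on Macaca_fascicularis_5.0. For alignment the study's methods give HISAT2, while Bowtie2 2.2.8 stands in the submitters' processing notes. The authors deposited estimated counts per transcript and FPKM per transcript. Estimated counts were summed over each symbol and rounded. No coordinates or sequences are given, because the reference used here is of another assembly.

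EdgeR 4.0.16 (R 4.3.3) was used for TMM normalization, its filter on low counts and the quasi-likelihood test, with a threshold of 0.05 on Benjamini-Hochberg adjusted p-values. Log2 CPM had a prior count of 2. Every adjusted p in the text is from this test. It was tested on simulated data. Transcript length was taken from the ratio of counts to FPKM, for values of at least 20 counts and 1 FPKM, which gave 88.5% of genes a length. Genes at 0 throughout a group were compared with a floor of 3 counts, a bound on counting error alone because the libraries had no molecular identifiers. Of the symbols 12 had been turned into dates and are not named.

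The comparison, the 30 gene lists and the named genes were chosen with earlier results of these data known. Lists of blood cell and sex chromosome genes had 0 members tested. Named genes were up to 15 per direction (the called ones with the largest folds, then those of smallest p-value), all with a mean log2 CPM of 2 or more and sides not overlapping, up to 6 members of each list by p-value, the defining markers, and 5 in each direction within controls; not all are printed, and some genes are not reported here. Other called genes were named after their values were seen. Alternatives were other size factors, filters, rounding, DESeq2 1.42.0, edgeR's exact test, limma 3.58.1 on counts (voom) and on log2(FPKM + 1) or log2(FPKM + 0.1), condition as a term, and leaving out each library. The exchange of condition labels and the division by length were added after the data were examined.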

Additional observations from a re-analysis of the deposited data

How the results depend on the processing

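No paired analysis was possible because the animal numbers are not shared between the sides. Against 56 genes called between the sides, the stricter filter (at least 50 counts in 2 libraries) called 102, DESeq2 1608, edgeR's exact test 975, limma on log2(FPKM + 1) 132 and on log2(FPKM + 0.1) 118, and the fit with condition as a term 2890. The higher share of the calls was 7.14% in the test reported and 34.3% in DESeq2, 34.9% in the exact test, 25.8% in limma on log2(FPKM + 1) and 36.3% without Control-317. All 56 were kept by the stricter filter, DESeq2 and the exact test, and 55 by limma on either FPKM scale. Limma-voom kept 50, of which 4 were higher and 46 lower. Leaving out a library gave 0 to 1417 calls between the sides, 0 to 2763 within controls and 0 to 1417 against the deprived libraries. DESeq2 called 2170 against the deprived libraries, and with the condition labels of Deprivated-316 and Control-317 exchanged the counts were 0 within controls and 0 against the deprived libraries. DESeq2 size factors, no filter on low counts, rounding before summing and limma-voom left the count between the sides at 56 to 80.

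No called gene turned in direction under any alternative run on the sides. Named genes that were not called did so in 14 cases. With condition as a term, and so against Control-317 alone, NPTX1 had a log2 fold change of 0.39, EMX1 3.09, RARA 0.12, SLC17A7 6.55, NEUROD6 1.44 and TBR1 2.21. Leaving out libraries 1 at a time gave -5.96 to 3.92 for GAD1, -0.80 to 0.26 for SLC6A11, -1.41 to 0.0019 for OPRM1, -2.63 to 0.11 for KCNJ13, -2.53 to 1.55 for TTR and -0.23 to 0.90 for STIM2, and on log2(FPKM + 1) and log2(FPKM + 0.1) TTR had 0.016 and 0.035. GAD1 turned without Control-331, and the other 5 without Control-317. Among list medians not given above, GABA synthesis and transport turned to -0.02 without Control-307 and -0.03 without Deprivated-316, heat shock and stress genes to -0.05 and left-right axis genes to 0.08 with condition as a term, left-right axis genes to 0.0066 without Control-331, retinoic acid genes to 0.0075 without Control-307, and oligodendrocyte precursors to 0.05 without Control-317. The cause of these turns was not tested.

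Library totals were highest in Control-317 and lowest in the deprived libraries, and genes of a few counts, such as CHST8 in right-titled libraries, have the least certain folds.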

Other observations

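Some well-expressed genes were listed at 0 in a single library and had at least 100 counts in each of the other 4. There were 16 such genes, of which 9 were in Control-317, among them ELK4, GPR180, KCNJ4, MAX, PDZD8, SEC23A and STIM2. The other libraries had 1 (AFAP1, in Control-307), 2 (RPL8 and LOC107128652, in Control-331), 2 (CASKIN1 and SYNJ2, in Deprivated-316) and 2 (CMTR1 and SALL1, in Deprivated-326). A 0 in estimated counts can be a failed estimate, and the cause was not tested.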
